A study of Mus musculus with 6 samples.

Results

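Creatine is made from arginine and glycine and, once phosphorylated, carries high-energy phosphate between mitochondria and the ATPases of the cell. The 9 genes described here encode the enzymes of creatine synthesis (Gatm, Gamt), the creatine transporter (Slc6a8), the 4 creatine kinases (Ckb, Ckm, Ckmt1, Ckmt2), an adenylate kinase (Ak1) and an AMP deaminase (Ampd3). They were selected by name from a table of 18193 genes: every probe set with 1 of these symbols as its sole gene symbol was taken, which gave 13 probe sets, and a gene's value is that of its probe set with the highest mean over the arrays. Ventricular tissue of mice 8 weeks old was profiled on 6 arrays. In the caAkt group (3 arrays), a transgene expressed constitutively and only in the heart supplies an activated form of the kinase Akt. The other hearts were wild-type (WT, 3 arrays). The sources used here name neither the promoter of the transgene nor the strain or sex. Whether every array stands for its own heart is not in the labels either, and the p-values therefore rest on a spread between arrays that may be partly technical.

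All values are RMA values on the log2 scale, and a change is caAkt minus WT on that scale, given with its moderated standard error (SE). The arrays of one genotype correlated at 0.995 to 0.997 over all probe sets, and arrays of different genotypes at 0.983 to 0.985. For the actin control, whose 3' excess over 5' rises with RNA degradation, that excess was 0.53 to 0.69 in caAkt and 0.60 to 0.71 in WT hearts, and the groups overlapped. Akt1 stood at 15.16, 15.10 and 15.08 in caAkt hearts, against 9.79, 9.79 and 10.18 in WT hearts, at its brightest probe set, as the labels imply. At the brightest Akt1 probe set with a plain name, that is without an a, s or x suffix, the change was -0.29 ± 0.08 (adjusted p = 0.0281 over all probe sets). Among marker lists, 0 of 9 cardiomyocyte markers were called higher and 3 lower, with a mean level over the list of 14.41 to 14.48 in caAkt and 14.50 to 14.63 in WT hearts. Macrophage markers were higher in 8 of 8 cases (list mean 10.27 to 10.64 in caAkt, 9.04 to 9.23 in WT), and fibroblast markers in 7 of 7 (13.11 to 13.29 in caAkt, 11.55 to 11.81 in WT). Endothelial markers were lower in 3 of 6 cases and higher in 0. Of 4 smooth muscle markers 1 was higher and 1 lower, and of 3 measured adipocyte markers 2 were lower. None of 7 skeletal muscle markers and none of 4 measured nerve and glia markers were called. In whole tissue, fewer cells of a type and less RNA per cell cannot be told apart.

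The creatine kinases come in tissue forms. Ckm is the cytosolic form of striated muscle, Ckb the cytosolic form of brain and of many other tissues, Ckmt2 the mitochondrial form of striated muscle and Ckmt1 the mitochondrial form of other tissues. The adult heart is known to hold mostly Ckm and Ckmt2, with Ckb more prominent in the fetal heart. Creatine is made mainly in kidney, pancreas and liver, and heart muscle takes it up from the blood through Slc6a8.

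Of the 9 genes, 5 were higher in caAkt hearts (Gatm, Gamt, Slc6a8, Ckb, Ckmt1), 2 were lower (Ckm, Ampd3) and 2 were not called (Ckmt2, Ak1). Among all genes 28.5% were called, 16.1% higher and 12.4% lower. The changes of Gatm and Ckmt1 were called and at least 2-fold, which held for 3.44% of all genes. The median change of the 9 genes was 0.24, and that of all 18193 genes was -0.04. At an adjusted p under 0.01, where 17.9% of all genes were called, 3 of the 9 were higher (Gatm, Ckb, Ckmt1) and 1 was lower (Ckm). The values of the groups did not overlap for 8 of the 9, which held for 42.4% of all genes: 5 lay above WT (21.4% of all genes) and 3 below (21.1%). Of the 13 probe sets, 5 were called higher and 1 lower in the fit over all probe sets, where 20.0% of all were called.

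**Figure D1:**
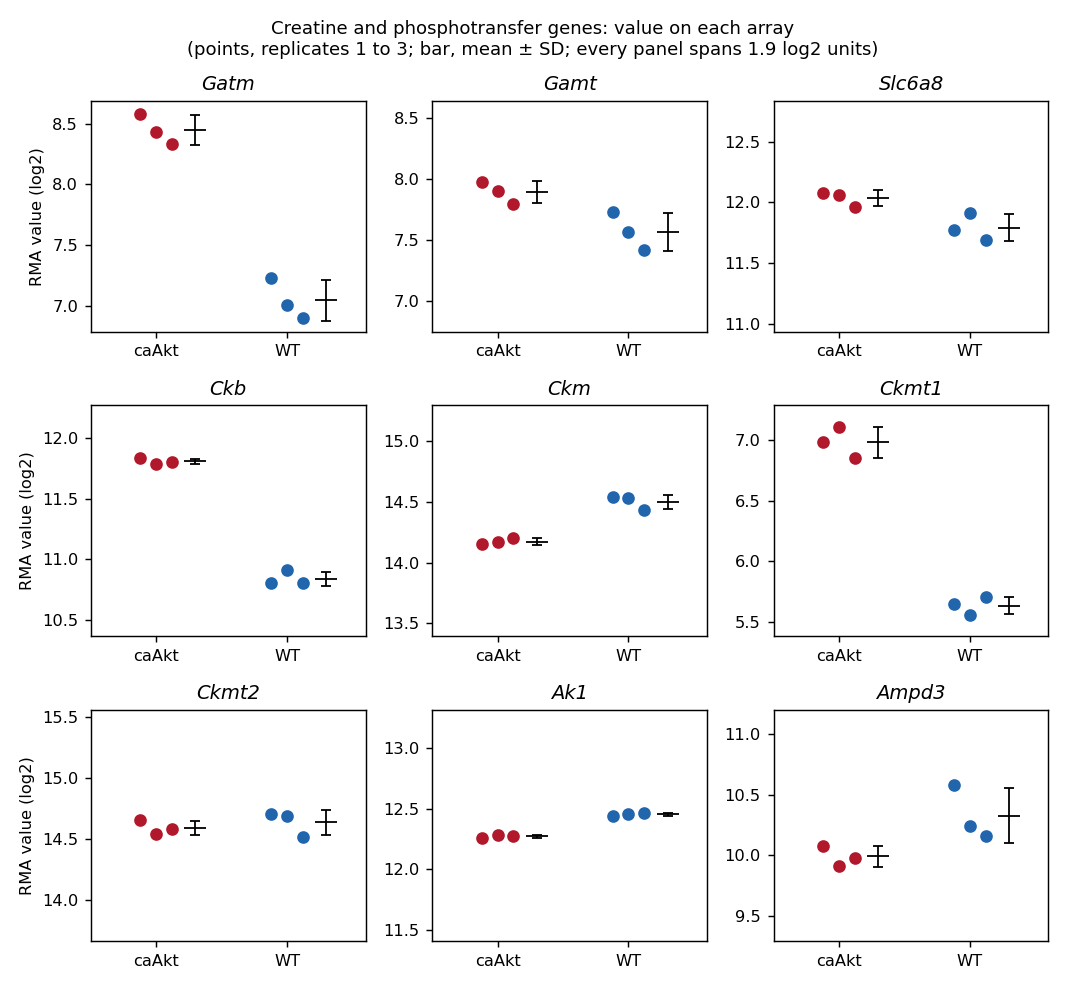
RMA values (log2) of the 9 genes on each array, with the 3 caAkt arrays at the left of each panel and the 3 WT arrays at the right, and bars for the mean and SD. The groups are far apart for Gatm, Ckb and Ckmt1, close but separate for Gamt, Slc6a8, Ckm, Ak1 and Ampd3, and overlap for Ckmt2.

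The RefSeq promoter table (build GRCm38.p6) held windows of 250 bases before to 50 bases after the transcript start for 8 of the 9 genes, 14 windows in all. The windows of Gatm, Ckb, Ckmt1 and Ckm are shown because these are the genes whose calls held with any array left out, the first 3 higher and Ckm lower in caAkt hearts. Capitals mark matches on either strand to the TATA box TATAAA, to the CCAAT box, to the GC box GGGCGG, to the E-box CANNTG, to the nuclear receptor site AAGGTCA or to the forkhead site GTAAACA.
Gatm, chr2:122611228-122611527, minus strand: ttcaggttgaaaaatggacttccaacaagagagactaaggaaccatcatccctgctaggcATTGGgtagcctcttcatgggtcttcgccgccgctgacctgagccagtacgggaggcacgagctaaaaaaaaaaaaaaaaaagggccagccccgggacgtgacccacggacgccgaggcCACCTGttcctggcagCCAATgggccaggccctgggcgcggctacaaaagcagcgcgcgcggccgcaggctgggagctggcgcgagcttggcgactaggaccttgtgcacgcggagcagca
Ckb, chr12:111672289-111672588, minus strand: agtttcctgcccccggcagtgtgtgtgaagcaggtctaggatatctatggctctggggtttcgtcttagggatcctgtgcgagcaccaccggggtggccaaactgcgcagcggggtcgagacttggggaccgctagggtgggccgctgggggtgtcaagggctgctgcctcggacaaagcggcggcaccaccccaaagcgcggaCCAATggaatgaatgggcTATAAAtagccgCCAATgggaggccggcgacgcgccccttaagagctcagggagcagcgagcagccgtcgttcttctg
Ckmt1, chr2:121357526-121357825, plus strand: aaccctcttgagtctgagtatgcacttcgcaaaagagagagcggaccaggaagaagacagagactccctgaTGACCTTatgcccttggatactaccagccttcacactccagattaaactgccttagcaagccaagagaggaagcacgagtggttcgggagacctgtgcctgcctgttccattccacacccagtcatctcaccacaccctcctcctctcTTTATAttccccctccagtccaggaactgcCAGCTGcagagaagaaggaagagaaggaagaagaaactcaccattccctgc
Ckmt1, chr2:121358360-121358659, plus strand: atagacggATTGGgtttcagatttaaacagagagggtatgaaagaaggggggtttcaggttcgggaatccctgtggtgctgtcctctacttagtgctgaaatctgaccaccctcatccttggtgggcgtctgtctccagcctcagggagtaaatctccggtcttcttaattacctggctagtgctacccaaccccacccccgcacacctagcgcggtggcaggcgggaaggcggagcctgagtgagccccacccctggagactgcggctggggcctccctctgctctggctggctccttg
Ckm, chr7:19410844-19411143, plus strand: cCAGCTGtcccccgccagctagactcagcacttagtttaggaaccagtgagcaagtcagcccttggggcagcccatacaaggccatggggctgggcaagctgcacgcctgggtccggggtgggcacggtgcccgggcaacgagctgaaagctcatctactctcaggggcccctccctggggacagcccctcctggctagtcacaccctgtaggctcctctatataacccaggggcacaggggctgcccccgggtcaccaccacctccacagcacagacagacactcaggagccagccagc
The Ckb window has TATAAA starting at position -28 and CCAAT at -46 and -16. The first Ckmt1 window has TATAAA, read on the other strand, at -31 and AAGGTCA, also on the other strand, at -179. The Gatm window has CCAAT at -55 and, on the other strand, at -190, and no TATAAA. Of the motifs searched, the only match in the Ckm window is an E-box at -249. The search took the exact letters TATAAA, and the similar letters tatataa in the Ckm window are therefore not marked. Of all 32851 windows of this length, 13.6% hold TATAAA, 37.4% CCAAT, 35.7% GGGCGG, 72.3% CANNTG, 4.72% AAGGTCA and 3.65% GTAAACA. No overlap between marked motifs occurred in these 5 windows. The known muscle enhancer of Ckm lies upstream of the window.

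Both enzymes of creatine synthesis were higher, Gatm by far the more. Gatm, the arginine:glycine amidinotransferase that makes guanidinoacetate, stood at 8.58, 8.43 and 8.33 in caAkt hearts, against 7.23, 7.01 and 6.90 in WT hearts. Every caAkt value lay more than 1 log2 unit above every WT value. The change was 1.40 ± 0.10 (limma adjusted p = 1.56e-05), or 2.64-fold, and it was 1.33 to 1.49 with any array left out. Gamt, the methyltransferase that turns guanidinoacetate into creatine, stood at 7.98, 7.91 and 7.80 in caAkt hearts, against 7.73, 7.57 and 7.41 in WT hearts. The lowest caAkt value and the highest WT value of Gamt were close. The change was 0.32 ± 0.09 (limma adjusted p = 0.0279), or 1.25-fold. Gamt was not called without caAkt replicate 1 (adjusted p = 0.0984) or 2 (0.0827), or without WT replicate 2 (0.0799) or 3 (0.0775). The within-array difference Gatm minus Gamt was 0.60, 0.52 and 0.53 in caAkt hearts, against -0.50, -0.56 and -0.52 in WT hearts. It was thus higher by 1.08 in caAkt hearts, which is a comparison of changes and not of levels (exact permutation p = 0.1, the smallest that 3 against 3 arrays allow, and 0.1 after adjustment over 3 such pairs). Macrophage and fibroblast markers moved in the direction of Gatm with the values given above, and their part in its change was not tested.

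The transporter Slc6a8, which brings creatine into the cell, was slightly higher. Its brighter probe set stood at 12.08, 12.06 and 11.96 in caAkt hearts, against 11.77, 11.91 and 11.69 in WT hearts. The dimmer probe set stood at 10.37, 10.41 and 10.46 in caAkt hearts, against 9.90, 10.19 and 10.31 in WT hearts. Neither probe set had overlapping groups, and WT replicates varied more than caAkt replicates at both. The change was 0.24 ± 0.08 (limma adjusted p = 0.0465 over genes) at the brighter one, and 0.28 ± 0.11 (adjusted p = 0.0977 over probe sets) at the dimmer one. In the fit over all probe sets the brighter one was not called either (limma adjusted p = 0.0684). Of the 6 fits that each leave out 1 array, only that without WT replicate 2 called Slc6a8 (adjusted p = 0.0341), and the others gave 0.0576 to 0.128. It was not called after a repeated quantile normalization (0.0802) or with array weights (0.0908).

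The cytosolic creatine kinases changed in opposite directions. Ckb stood at 11.83, 11.79 and 11.80 in caAkt hearts, against 10.81, 10.91 and 10.80 in WT hearts. Both groups were tight and far apart. The change was 0.97 ± 0.07 (limma adjusted p = 1.23e-05), or 1.95-fold. Ckm stood at 14.15, 14.17 and 14.20 in caAkt hearts, against 14.54, 14.53 and 14.44 in WT hearts, so that every caAkt value was below every WT value. The change was -0.33 ± 0.07 (limma adjusted p = 0.00532), or 1.25-fold lower. Of 9 cardiomyocyte markers, Tnni3 (-0.35), Pln (-0.40) and Ryr2 (-0.41, with overlapping groups) were also called lower. The other 6 were not called, and of these Mybpc3 (0.19) and Tnnt2 (0.06) went the other way. The median change of the list was -0.13, with the list means given above. The part of cardiomyocyte content in the change of Ckm was not tested. The WT mean of Ckm lay 0.89 below the highest values of the arrays, and differences this close to the top of the scale may be understated. The dimmer Ckm probe set stood at 8.15, 8.21 and 8.09 in caAkt hearts, against 8.07, 8.06 and 7.95 in WT hearts. Its change was 0.12 ± 0.07 and was not called (adjusted p = 0.300 over probe sets), and with the mean of both probe sets Ckm was not called (-0.10, adjusted p = 0.222). The within-array difference Ckb minus Ckm was -2.32, -2.39 and -2.40 in caAkt hearts, against -3.73, -3.62 and -3.63 in WT hearts. The ratio of the 2 signals was thus 2.45-fold higher in caAkt hearts (exact permutation p = 0.1, the smallest possible, and 0.1 after adjustment over the 3 pairs). Markers of nerve and glia, cells in which Ckb is well known, averaged 6.65 to 6.80 in caAkt and 6.73 to 6.78 in WT hearts and overlapped. Macrophage and fibroblast markers moved with Ckb, and their part was not tested.

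The mitochondrial creatine kinases also parted. Ckmt1 stood at 6.98, 7.11 and 6.85 in caAkt hearts, against 5.64, 5.56 and 5.71 in WT hearts. The groups lay more than 1 log2 unit apart. The change was 1.34 ± 0.08 (limma adjusted p = 7.26e-06), or 2.54-fold. Its other probe set stood at 5.82, 6.39 and 5.82 in caAkt hearts, against 5.29, 5.25 and 4.97 in WT hearts. The change there was 0.84 ± 0.16 (adjusted p = 0.00537 over probe sets), in the same direction. Macrophage and fibroblast markers, with median changes of 1.31 and 1.48, moved in the direction of Ckmt1, and their part in its change was not tested. Ckmt1 was dim: 29.6% of genes had a mean at or below that of its brighter probe set. Ckmt2 stood at 14.65, 14.54 and 14.58 in caAkt hearts, against 14.70, 14.68 and 14.52 in WT hearts. The groups overlapped. The change was -0.04 ± 0.08 (limma adjusted p = 0.705), with a 95% interval of -0.22 to 0.13, and the WT mean lay 0.75 below the highest values of the arrays. The within-array difference Ckmt1 minus Ckmt2 was -7.67, -7.43 and -7.73 in caAkt hearts, against -9.06, -9.13 and -8.81 in WT hearts. It was higher by 1.39 in caAkt hearts (exact permutation p = 0.1, the smallest possible, and 0.1 after adjustment over the 3 pairs).

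**Figure D2:**
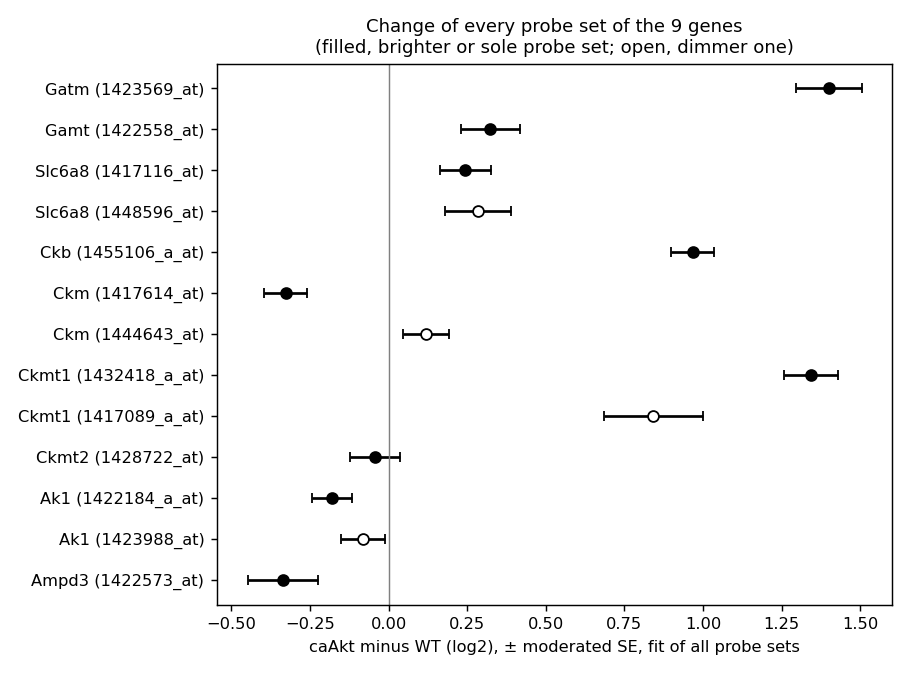
Change (caAkt minus WT, log2) of each of the 13 probe sets of the 9 genes, with the moderated SE from the fit of all probe sets. Filled points are the probe sets that stand for a gene, and open points are dimmer ones, which lie on the other side of 0 only for Ckm.

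Of the enzymes that handle ADP and AMP, Ampd3 was called lower, by a narrow margin, and Ak1 was not called. Ak1, which turns ADP into ATP and AMP, stood at 12.26, 12.28 and 12.28 in caAkt hearts, against 12.44, 12.45 and 12.47 in WT hearts. The groups did not overlap, and the SD was 0.01 in each. The change was -0.18 ± 0.06, where the SE borrows spread from all genes, and it was not called (limma adjusted p = 0.0584). Its 95% interval, which is not adjusted for the number of genes, was -0.32 to -0.04. Ak1 was called with an intensity trend in the variance (adjusted p = 0.0452), after a repeated quantile normalization (0.0471) and with array weights (0.0376), and its adjusted p was 0.0958 to 0.143 with any array left out. The dimmer Ak1 probe set stood at 5.64, 5.78 and 5.68 in caAkt hearts, against 5.78 on all 3 WT arrays, and was not called (-0.08 ± 0.07, adjusted p = 0.472 over probe sets). Ampd3, the AMP deaminase isoform first known from red cells, which makes IMP, stood at 10.08, 9.91 and 9.98 in caAkt hearts, against 10.58, 10.24 and 10.16 in WT hearts. WT replicate 1 was the highest value. The change was -0.34 ± 0.11 (limma adjusted p = 0.0490 over genes, and 0.0697 in the fit over all probe sets). Without WT replicate 1 it was -0.21 (adjusted p = 0.109), and of the 6 fits that leave out 1 array only that without WT replicate 3 called it (-0.42, adjusted p = 0.0270). Without caAkt replicate 1, 2 or 3, or WT replicate 2, the adjusted p was 0.0730, 0.154, 0.121 and 0.0747. Ampd3 was also not called with plain probe sets (0.0509) or median centring (0.0608). Of 4 measured red cell markers, 3 were lower, with a list mean of 6.53 to 6.88 in caAkt and 7.13 to 7.53 in WT hearts. Their part in the values of Ak1 and Ampd3 was not tested.

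**Figure D3:**
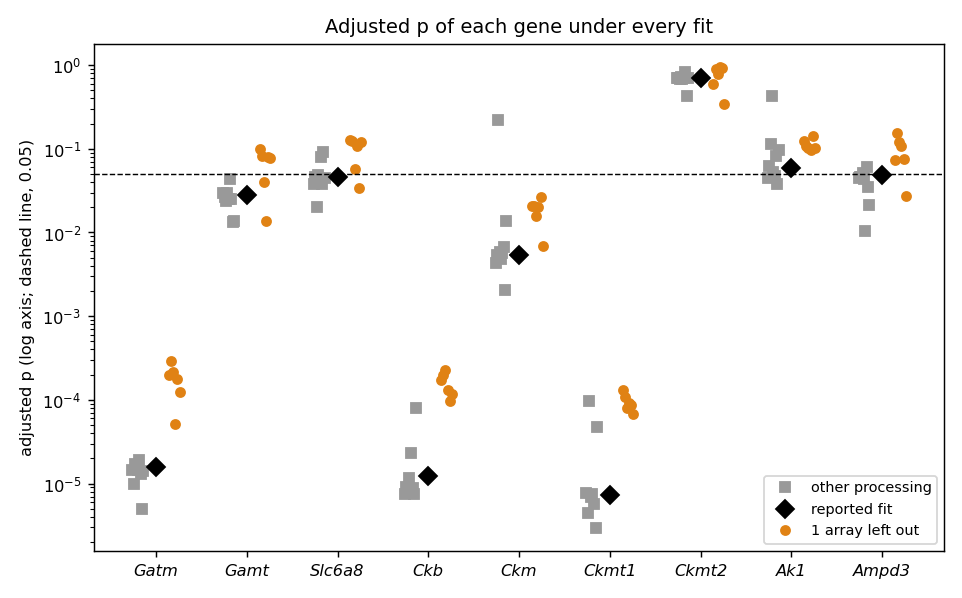
Adjusted p (log axis) of each of the 9 genes in the reported fit (diamonds), under other processing (squares) and with 1 array left out (circles), with a dashed line at 0.05. Gatm, Ckb and Ckmt1 stay far below the line, Ckm crosses it only with the mean of its probe sets, Gamt, Slc6a8, Ak1 and Ampd3 lie on both sides, and Ckmt2 stays above it.

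Within a genotype the spread between arrays differed among the 9 genes: the SD was 0.01 in each group for Ak1, whereas Ampd3 on WT replicate 1 lay 0.25 above its group mean, against an SD of 0.11 over all genes on that array. Of the 9, 7 lay above their group mean on caAkt replicate 1 and 2 on caAkt replicate 3, and 6 lay above it on WT replicate 1 and 2 on WT replicate 3. The median deviation of the 9 was 0.04 on caAkt replicate 1 and -0.10 on WT replicate 3, where the median over all genes was 0.00 and -0.02. Profiles over the 6 arrays, each centred on its own mean, were compared by their root mean square difference (log2). Among the 9 genes Ckm and Ak1 were the closest pair (0.08), followed by Gamt and Slc6a8 and by Ckmt2 and Ak1 (0.10 each), whereas Gatm and Ckm were farthest apart (0.87). Among 16326 other genes with a characterised symbol, Pwwp3b, Mpeg1 and Basp1 were most like Gatm (0.06 to 0.08), Cib1, Tns3 and Dact3 most like Ckb (0.03 to 0.04), and Osbpl6, Hbegf and Comtd1 most like Ckmt1 (0.07 each). Micos13, Grpel1 and Ufsp1 were most like Ckm (0.01 to 0.02). These are descriptions over 6 arrays that fall into 2 groups.

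In the pathways around these genes, changes went both ways. Methyl donors and arginine feed creatine synthesis. Of 15 measured genes around their supply and use, 3 were higher and 5 lower (median change -0.05, against -0.04 over all genes). The list mixes supply and use, so its counts give no direction of supply. Among all genes 16.1% were higher and 12.4% lower. The cationic amino acid transporters, which carry arginine, were split: Slc7a2 was higher by 0.82 ± 0.11 (limma adjusted p = 0.000559), and Slc7a1 had a change of -0.54 ± 0.07 (limma adjusted p = 0.000448). With the mean of its probe sets Slc7a2 changed by 0.28 and was still called. Asl, which releases arginine from argininosuccinate, was higher by 0.73 ± 0.10 (limma adjusted p = 0.00061). Mtr, the methionine synthase, changed by -0.77 ± 0.14 (limma adjusted p = 0.0026), or -0.41 with the mean of its probe sets. The other calls in this list changed with single arrays. Mat2b (-0.39), a subunit of the enzyme that makes the methyl donor, was called, of the 6 fits on 5 arrays, only in that without WT replicate 3 (0.0678 to 0.151 in the others). Ahcyl1 (0.21) was called only without WT replicate 1 (0.0781 to 0.142 in the others) and was not called with the mean of its probe sets (0.116). Mtrr (-0.31), which reactivates Mtr, was not called without caAkt replicate 2 or 3 or WT replicate 1 or 2 (0.0811 to 0.112). Oat (-0.27), an ornithine aminotransferase, was not called without caAkt replicate 1 or 2 or WT replicate 1 or 2 (0.0552 to 0.102).

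Among other adenylate and nucleoside diphosphate kinases, 2 of 11 measured genes were higher and 2 lower (median change 0.01), where 28.5% of all genes were called. Nme7 was higher by 0.42 ± 0.06 (limma adjusted p = 0.00108), or 0.19 with the mean of its probe sets. Nme1, a nucleoside diphosphate kinase of the cytosol, was higher by 0.38 ± 0.10 (limma adjusted p = 0.0224), or 0.71 with the mean of its probe sets, and was not called without caAkt replicate 1 or 3 or WT replicate 2 or 3 (0.0639 to 0.0831). Ak3, which works in the mitochondrial matrix, changed by -0.26 ± 0.08 (limma adjusted p = 0.038) and was called, of the 6 fits on 5 arrays, only in that without WT replicate 3 (0.0624 to 0.128 in the others). Nme6 (-0.26) was not called without caAkt replicate 1 (0.0543) or WT replicate 2 (0.0641).

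Carriers that pass adenine nucleotides and phosphate through the mitochondrial membranes were higher in 2 of 10 cases and lower in 1 (median change -0.06), near the share of 28.5% called among all genes. Slc25a24, an exchanger of ATP-magnesium for phosphate, was higher by 0.57 ± 0.09 (limma adjusted p = 0.00157), and by 0.40 with the mean of its probe sets. Slc25a5, the ADP/ATP carrier of many tissues, was higher by 0.34 ± 0.07 (limma adjusted p = 0.0083). That call was lost with the mean of its probe sets (0.27, adjusted p = 0.0514) and with plain probe sets (0.12, adjusted p = 0.427). Slc25a4, the ADP/ATP carrier of heart and muscle, changed by -0.11 ± 0.07, was not called, and is named because it pairs with Slc25a5, after its value was seen. Slc25a42, a carrier of coenzyme A and adenine nucleotides, changed by -0.46 ± 0.12 (limma adjusted p = 0.0161), or -0.25 with the mean of its probe sets. It was not called without caAkt replicate 1 (0.0606) or 3 (0.0646) or WT replicate 3 (0.052).

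Genes of the breakdown of AMP and other nucleotides, the purine nucleotide cycle and salvage were higher in 7 of 17 measured cases and lower in 5 (median change 0.21). Among all genes 16.1% were higher and 12.4% lower. With any array left out, 5 to 7 were higher and 3 to 4 lower. Nt5e, the ectoenzyme CD73 that makes adenosine from AMP, stood at 9.35, 9.15 and 9.27 in caAkt hearts, against 8.18, 7.99 and 8.05 in WT hearts. Its change was 1.19 ± 0.08 (limma adjusted p = 1.26e-05), or 0.39 and still called with the mean of its probe sets. Ada, the adenosine deaminase, stood at 6.48, 6.55 and 6.38 in caAkt hearts, against 5.35, 5.22 and 5.44 in WT hearts, a change of 1.14 ± 0.08 (limma adjusted p = 1.51e-05). Nt5c, a 5' nucleotidase of the cytosol, was higher by 0.85 ± 0.08 (limma adjusted p = 5.66e-05). The groups did not overlap for any of these 3 genes. Macrophage and fibroblast markers moved in the direction of these genes, and their part was not tested. Adsl, the lyase of purine synthesis and of the purine nucleotide cycle, stood at 9.74, 9.81 and 9.75 in caAkt hearts, against 10.48, 10.47 and 10.45 in WT hearts. Its change was -0.70 ± 0.06 (limma adjusted p = 5.47e-05). Adssl1, the muscle form of the synthase that precedes it in the cycle, was higher by 0.56 ± 0.09 (limma adjusted p = 0.00181) and is named after its value was seen. Adk, which turns adenosine back into AMP, changed by -0.65 ± 0.13 (limma adjusted p = 0.00532), and Nt5c3 by -0.33 ± 0.07 (limma adjusted p = 0.00865), or -0.22 with the mean of its probe sets. Ampd1, the skeletal muscle AMP deaminase, stood at 4.38 to 4.46 in caAkt and 4.65 to 4.73 in WT hearts, a level at which 7.93% of genes had a mean at or below it. Its change was -0.25 ± 0.07 (limma adjusted p = 0.0196), and it was not called without caAkt replicate 3 (0.0618) or WT replicate 1 (0.0608). Nt5c2 (-0.25) was called, of the 6 fits on 5 arrays, only in that without WT replicate 1 (0.0663 to 0.123 in the others).

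**Figure D4:**
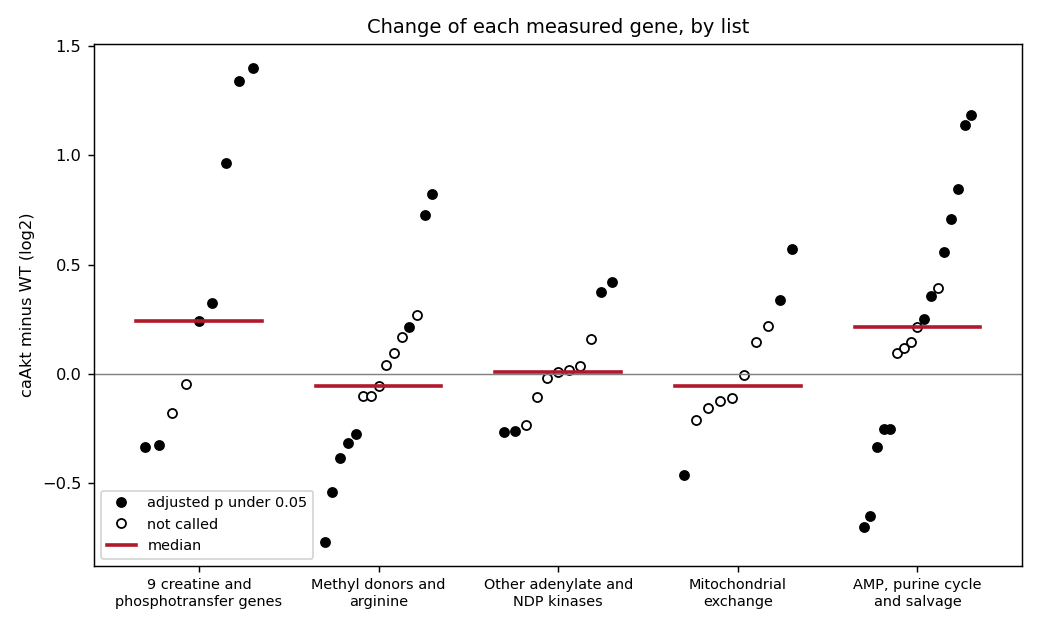
Change (caAkt minus WT, log2) of each measured gene in the 9 creatine and phosphotransfer genes and in the 4 pathway lists, with filled points for an adjusted p under 0.05, open points for genes not called and a line at each median. Medians are 0.24 for the 9 genes and 0.21 for AMP, purine cycle and salvage, and -0.06 to 0.01 for the other lists.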

How the data were processed

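Expression was measured on 6 arrays of ventricular RNA, 3 from caAkt and 3 from WT mice. Per the labels' protocols, RNA was extracted with Trizol, cleaned on columns and biotin-labelled in a one-cycle reaction. The deposited values are log2 values per probe set, which the authors made with RMA in affy, per the submitters' processing notes, with versions not given in the sources used here. RMA makes the distributions of the arrays alike, which hides any shift common to the bulk of genes.

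Gene names came from the platform's annotation. An update by gene identifier changed no symbol. Of 45037 probe sets that were not controls, 34945 had 1 gene symbol, 932 several and 9160 none. For each of 18193 genes, the probe set of highest mean over the 6 arrays was kept. A limma model (version 3.58.1, R 4.3.3; lmFit, eBayes) with genotype as its only term tested caAkt against WT, two-sided, leaving 4 residual degrees of freedom. The p-values were adjusted by Benjamini-Hochberg across genes, and a second fit covered all probe sets. Genes were called at an adjusted p under 0.05. The fits were tested on simulated data. The difference in change between 2 genes was tested by exact permutation of the arrays.

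The 9 genes, the pathway lists and the marker lists were chosen with earlier results of these data known. From each of the 4 pathway lists (methyl donors and arginine, other phosphotransfer kinases, mitochondrial exchange, AMP and salvage), up to 4 genes with the smallest p are named, and every called gene where 5 or fewer were called in a direction. Lists of cardiomyocyte, macrophage, fibroblast, endothelial, smooth muscle, skeletal muscle, nerve and glia, red cell and adipocyte markers were read off the same fit. Alternatives were other variance settings, other ways to choose the probe set, a filter at the 25th percentile of probe set means, other scalings, a stricter threshold of 0.01, a block for the replicate number, weights for the arrays, and fits on 5 arrays.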

Additional observations from a re-analysis of the deposited data

How the results depend on the processing

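The calls of Gatm, Ckb and Ckmt1 kept their direction and their side of the threshold under every alternative that gave them a value (14 or 15 fits each), with changes of at least 1.33, 0.91 and 1.09. With plain probe sets only, Ckb and Ckmt1 had no probe set, and their pairs with Ckm and Ckmt2 could not be computed. Over the 9 genes, 111 of 133 alternative values kept direction and call, 19 lost the call, 3 gained it (Ak1) and 0 changed sign. Of the 9, 3 to 4 were higher and 1 to 2 lower with any array left out. Counts were 5 higher and 1 lower with the mean of probe sets (Ampd3 lower) or median centring (Ckm lower). With plain probe sets 3 were higher (Gatm, Gamt, Slc6a8) and 1 lower (Ckm). At an adjusted p under 0.01, 3 were higher (Gatm, Ckb, Ckmt1) and 1 lower (Ckm). At that threshold 1270 genes were lower in the whole table, against 2254 at 0.05. With plain probe sets Akt1 was represented by another probe set, with a change of -0.29. After a repeated quantile normalization 2670 genes were higher and 2710 lower, against 2929 and 2254. With the replicate number as a block, 5 of the 9 genes were higher and 2 lower, over 2903 genes higher and 2238 lower in all, and none of the 9 changed its call. Correlations of deviations from the group means were 0.27, 0.03 and -0.12 for same-numbered arrays (replicates 1, 2 and 3). For arrays with different numbers they were -0.27 to 0.23. With 3 arrays per group these values do not settle whether the numbers stand for pairs, and the reported fit did not take them as pairs. With any array left out, 2 to 3 genes of the methyl donor and arginine list were higher and 2 to 5 lower, 1 to 2 and 0 to 2 of the other phosphotransfer kinases, 2 to 3 and 0 to 1 of the mitochondrial carriers, and 5 to 7 and 3 to 4 of the AMP and salvage genes. The differences within the 3 gene pairs kept their direction under each alternative tried. The cause of lost calls was not tested. The number of arrays, 3 per group, and the top of the scale for Ckm and Ckmt2 limit what can be seen.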
